A study of Mus musculus with 6 samples.

Results

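Carbonic anhydrases are zinc enzymes that turn carbon dioxide and water into bicarbonate and a proton, and back. Cells use them to hold their internal pH, to move acid out and to supply bicarbonate to transporters and biosynthetic enzymes, and in the stomach they feed acid and bicarbonate secretion. Family members differ mainly in where they sit: Car2, Car3, Car7 and Car13 in the cytosol, Car5b in mitochondria, Car4 anchored to the outer face of the plasma membrane, and Car9 and Car12 spanning the membrane with an outward-facing catalytic domain. Car8 and Car11 belong to the family by sequence but are carbonic anhydrase-related proteins without the enzyme activity, and Car8 is known as a binding partner of the inositol trisphosphate (IP3) receptor.

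The 10 genes described here are Car2, Car3, Car4, Car5b, Car7, Car8, Car9, Car11, Car12 and Car13, of 21959 genes in the count table. They were taken by name, and the family was picked because Car8 was nearly lost in the resistant line, so the counts of these genes are given as a description and carry no p-value. The table held 16 carbonic anhydrase genes in all, and the 6 outside the list (Car1, Car5a, Car6, Car10, Car14 and Car15) are given where they add to the picture.

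RNA was measured in the mouse gastric adenocarcinoma cell line MPC, which the paper calls MTC, and in MPC-PTX, which it calls MTC-R. Both lines carry the genotype CDH1-/-;Trp53-/-. MPC was the untreated control, and MPC-PTX was derived from it by over 30 cycles of PTX (paclitaxel, a drug that stabilizes microtubules). There were 3 libraries per line. The parent cells came from gastric organoids of C57BL/6J mice with floxed Trp53 and Cdh1 and a tamoxifen-inducible Cre under the Mist1 promoter, recombined in culture, and were grown as a tumour under the skin of BALB/c nude mice before culture. Each line went through a monoclonal selection, so each is 1 clone, and a difference between them cannot be told apart from a difference between clones. The labels do not say whether replicates were separate cultures, so the p-values below measure the spread between these libraries, which may be technical.

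The libraries held 16574580 to 23148182 counts. All 6 epithelial markers were abundant, with summed levels of 9121 to 10569 CPM (read counts scaled to a common library size) in MPC and 5459 to 5647 CPM in MPC-PTX, and all 6 were lower in MPC-PTX by edgeR. Of 12 gastric markers, Gkn2, Tff1, Tff2 and Pgc had 0 counts in every library and 9 had at most 3 counts in any library. The highest of them, Bhlha15 (Mist1), was low in both lines and higher in MPC-PTX (5, 6 and 5 against 18, 22 and 15 counts, 1.68 ± 0.32, edgeR adjusted p = 0.0076). Reads of the targeted genes remained, with 63 to 142 counts for Trp53 and 2217 to 3068 for Cdh1 per library, and counts per gene cannot show which exons they came from. Replicates were more variable in MPC (biological coefficient of variation 17.9%) than in MPC-PTX (3.01%). The level of MPC replicate 3 over the other MPC libraries correlated with GC content (Spearman rho -0.575 across 11776 genes, which are not independent). MPC replicates 1 and 2 were not compared in this way.

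The sequence that separates enzymes from relatives is the zinc site. The catalytic zinc is held by 3 histidines, and the first 2 lie close together. Each line gives 30 coding bases from the GENCODE M21 transcript, 5′ to 3′, and capitals mark the codons aligned with the first 2 zinc histidines of Car2.
Car2: ttgatccagtttCACtttCACtggggctca
Car13: ttgcggcagttcCATttgCACtgggggtca
Car5b: ctgaagcagtttCATtttCATtggggagcc
Car9: gccttgcagttgCATctaCACtggggaact
Car12: gcagagcagctgCACttgCACtgggggaac
Car8: ctgtatgaagttAGAtttCACtggggaaga
Car11: ctcagtgaactgCGCctgCTAtttggagct
CAT and CAC are the histidine codons. Of the 10 genes, 8 kept a histidine codon at all 3 positions. Car8 had AGA, an arginine codon, at the first and kept the other 2, and Car11 kept 0 of 3, with CGC, CTA and CAG in turn. The Car8 stretch is coding sequence in exon 3 of its transcript, at chr4:8221604-8221633 on the minus strand of GRCm38, and the Car2 stretch is in exon 3 at chr3:14895057-14895086 on the plus strand. The Car9 stretch lies at chr4:43508952-43508981, the Car12 stretch at chr9:66747635-66747664 and the Car13 stretch at chr3:14650694-14650723, each within 1 exon. The most abundant member, Car2, thus carries the full zinc site, and Car8, which nearly disappeared, does not.

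Car8 was the member that set the choice of the family. The gene lies at chr4:8143362-8239041 on the minus strand. MPC replicates 1 to 3 had 68, 165 and 203 counts, and MPC-PTX replicates 1 to 3 had 0, 2 and 0. Every MPC library was far above every MPC-PTX library, and MPC replicate 1 was the lowest of its line. In CPM the level was 7.29 ± 3.24 (SD, n = 3) in MPC and 0.030 ± 0.052 (n = 3) in MPC-PTX. Over whole lines, 436 counts stood against 2, a ratio of 224.5 per total count with a 95% Clopper-Pearson interval of 61.8 to 1860, which covers counting error only. The ratio was 280.0, 206.7 or 185.1 without MPC replicate 1, 2 or 3, and it was 140.2 or 164.1 without MPC-PTX replicate 1 or 3. Both MPC-PTX counts came from replicate 2, and without it 436 counts stood against 0, at least 96.5-fold lower in MPC-PTX if 3 counts are allowed over the line. The fitted log2 fold change (MPC-PTX against MPC) was -7.58 ± 0.79 (SE), but with so few counts in MPC-PTX it depended on the prior count, and was -7.02 at 0.5 and -6.50 at 1, and it ranged from -6.99 without MPC-PTX replicate 1 to -10.18 without replicate 2. In bulk RNA, fewer cells that express a gene and less RNA per cell cannot be told apart.

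**Figure D1:**
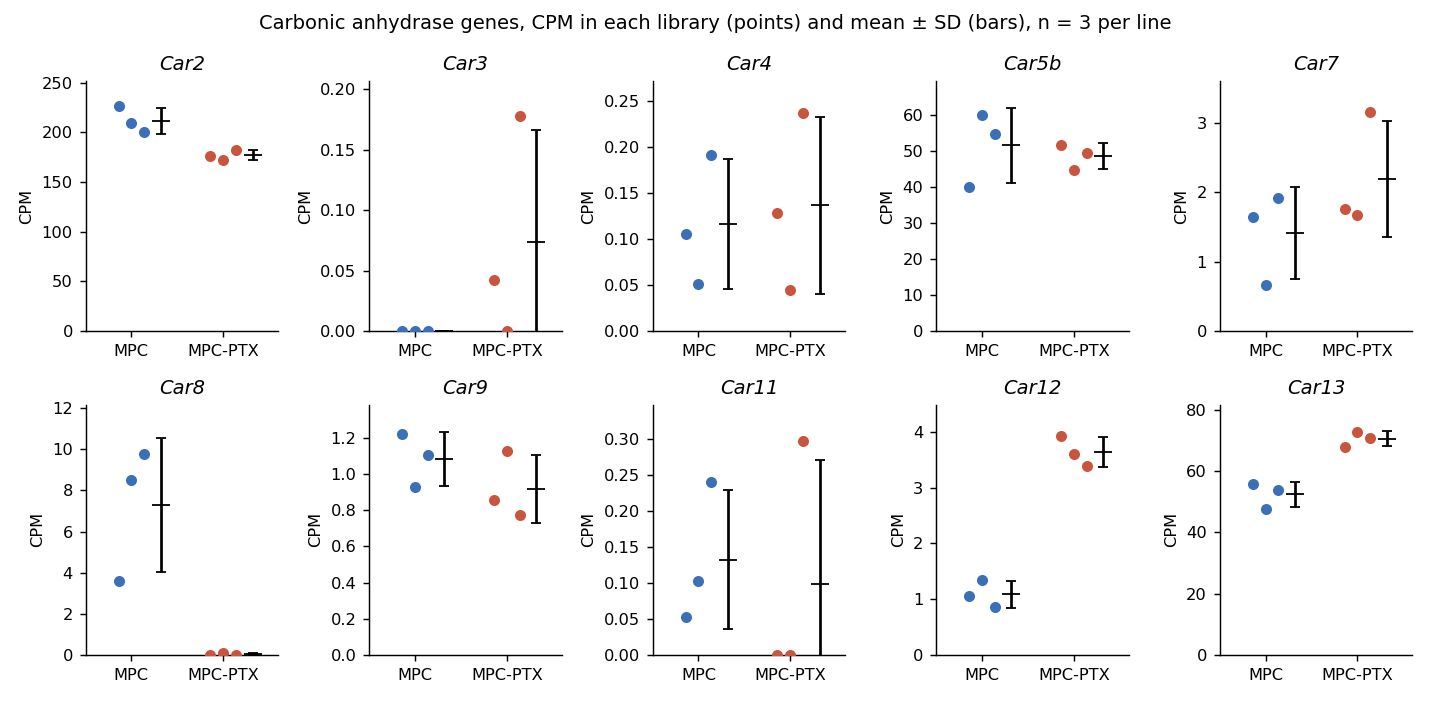
CPM of the 10 carbonic anhydrase genes in each library (points, blue for MPC and red for MPC-PTX), with the mean and SD of 3 libraries per line (black, cut off at 0). Each panel has its own vertical axis in CPM; the lines do not overlap for Car2, Car8, Car12 and Car13.

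Car2, the fast and widespread cytosolic enzyme, was the most abundant member in both lines. The gene lies at chr3:14886273-14900770. It had 4254, 4054 and 4165 counts in MPC and 4126, 3825 and 3069 in MPC-PTX, or 211.6 ± 13.2 CPM and 176.9 ± 4.98 CPM (SD, n = 3 each). The lowest MPC library, at 200.03 CPM, was above the highest MPC-PTX library, at 182.3 CPM, with a log2 fold change of -0.26 ± 0.07. The distance between the lines was small beside the level itself.

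Car13, a second cytosolic enzyme encoded in the same cluster as Car2 on chromosome 3, went the other way. It had 1048, 927 and 1122 counts in MPC and 1591, 1616 and 1192 in MPC-PTX, or 52.4 ± 4.14 and 70.5 ± 2.46 CPM, a log2 fold change of 0.43 ± 0.08. All MPC-PTX libraries were above all MPC libraries. When GC content and gene length entered the fit as offsets the log2 fold change was 0.20. Car7, another cytosolic enzyme, was low and uneven. It had 31, 13 and 40 counts in MPC and 41, 37 and 53 in MPC-PTX, and the lines overlapped (log2 fold change 0.60 ± 0.42).

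Car5b, the mitochondrial enzyme, had 751, 1166 and 1137 counts in MPC and 1209, 993 and 834 in MPC-PTX. The level was 51.5 ± 10.4 CPM in MPC and 48.6 ± 3.52 CPM in MPC-PTX, and the MPC libraries spanned the whole range of the MPC-PTX libraries. Its log2 fold change was -0.08 ± 0.15. Car5a, the other mitochondrial form, had 0 counts in all 6 libraries.

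The membrane-spanning pair split. Car12, at chr9:66713686-66766845, had 20, 26 and 18 counts in MPC and 92, 80 and 57 in MPC-PTX, or 1.09 ± 0.24 and 3.64 ± 0.27 CPM. All MPC-PTX libraries lay above all MPC libraries, by 3.35-fold on average (log2 fold change 1.74 ± 0.21). Car9, at chr4:43506966-43513729, had 23, 18 and 23 counts in MPC and 20, 25 and 13 in MPC-PTX, or 1.085 ± 0.15 and 0.918 ± 0.19 CPM, and the lines overlapped (-0.23 ± 0.26). The Car12 to Car9 ratio of counts was 1.03 ± 0.36 in MPC (0.783 to 1.44) and 4.06 ± 0.75 in MPC-PTX (3.2 to 4.6). The pair was thus read about equally often in MPC, while in every MPC-PTX library Car12 counts were several times those of Car9. Car9 shares 214 exon bases with Gm12454 on the opposite strand. Whether the counting used strand is not given in the sources used here, so some Car9 counts could belong to that gene. Car14, a further transmembrane member, had 11, 15 and 26 counts in MPC and 25, 20 and 18 in MPC-PTX and did not pass the test (0.20 ± 0.33, edgeR adjusted p = 0.671).

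Car9 and Car12 are textbook targets of the hypoxia-inducible factors, which bind cores spelled ACGTG or GCGTG. Both promoters are shown because the pair differed in the resistant line. Each is the 300-base RefSeq window from 250 bases before the gene start (GRCm38.p6), 5′ to 3′ along the gene, at chr4:43506776-43507075 for Car9 and chr9:66713436-66713735 for Car12, both on the plus strand. Capitals mark a core on either strand.
Car9: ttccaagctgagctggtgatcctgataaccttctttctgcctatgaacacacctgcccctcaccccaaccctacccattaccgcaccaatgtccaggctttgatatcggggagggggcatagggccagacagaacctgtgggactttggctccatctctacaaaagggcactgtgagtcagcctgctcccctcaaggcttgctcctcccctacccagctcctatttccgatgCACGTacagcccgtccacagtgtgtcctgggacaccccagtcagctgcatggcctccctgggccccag
Car12: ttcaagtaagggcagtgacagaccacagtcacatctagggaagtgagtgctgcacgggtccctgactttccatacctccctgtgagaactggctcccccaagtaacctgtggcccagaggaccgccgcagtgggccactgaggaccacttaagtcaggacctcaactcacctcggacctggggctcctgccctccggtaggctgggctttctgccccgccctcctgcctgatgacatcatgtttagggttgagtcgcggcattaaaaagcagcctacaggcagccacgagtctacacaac
The Car9 window held 1 core, on the opposite strand and 18 bases before the RefSeq start, and the Car12 window held 0. For Car9 that start and the core both lie inside the GENCODE gene span given above. A core was present in 43.8% of all 32851 promoter windows of this length, so a match is a description and not a site, and no match says only that these letters are not in this window. RefSeq windows were matched for 6 of the 10 genes.

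The remaining members were at the edge of detection. Car3, the muscle and fat enzyme, had 0 counts in all MPC libraries and 1, 0 and 3 in MPC-PTX. Car4 had 2, 1 and 4 counts in MPC and 3, 1 and 4 in MPC-PTX, and Car11 had 1, 2 and 5 against 0, 0 and 5. None of these 3 passed the filter on low counts, and no difference was detectable at this depth. Outside the list, Car10 had 0 counts throughout, Car6 at most 2 in any library and Car15 at most 11. Car1, the red cell enzyme encoded between Car13 and Car3, had 78, 4 and 11 counts in MPC and 8, 11 and 17 in MPC-PTX (-1.44 ± 1.06, edgeR adjusted p = 0.351). MPC replicate 1 alone decided that value: without it the log2 fold change was 0.65. Markers of the cells that are rich in Car1 and Car3 were low as well. The 8 erythroid markers summed to 3.03 to 5.58 CPM in MPC and 5.34 to 6.49 in MPC-PTX, with Hba-a2 at 0, and the 7 fat and muscle markers summed to 1.59 to 2.35 and 0.475 to 0.683 CPM, with Plin1, Myh1 and Myod1 at 0. Fibroblast markers summed to 9.83 to 10.9 and 8.63 to 9.92 CPM, leukocyte markers to 0.309 to 0.850 and 0.726 to 0.901 CPM, and endothelial markers to 3.35 to 4.73 and 3.06 to 3.38 CPM. Their part in any result was not tested.

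Of the 7 members that passed the filter, 4 were past an adjusted p of 0.05, with Car12 and Car13 higher and Car2 and Car8 lower in MPC-PTX. Over all 11795 tested genes 29.7% were past it, 14.1% higher and 15.6% lower. The lines did not overlap in CPM for the same 4 members, against 46.9% of all tested genes. Since the family was chosen with this contrast in view and Car8 passed the filter through MPC alone, nothing is read from these shares. The median log2 fold change was -0.08 over the 7 members and 0.04 over all tested genes. Car2 dropped out of the calls without MPC replicate 2 or without any single MPC-PTX library, and Car13 dropped out with GC and length offsets.

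Compared per kilobase of exon, the family was dominated by the same 3 genes in both lines. In MPC, Car2 stood at 82.6 to 93.3 CPM per kb, Car13 at 20.8 to 24.2, Car5b at 6.28 to 9.46 and Car8 at 0.937 to 2.53, and each of these ranges was clear of the next. Below them, Car9 and Car7 overlapped, and so did Car12, Car11 and Car4. In MPC-PTX the first 3 kept their places at 71.2 to 75.2, 29.5 to 31.7 and 7.04 to 8.12 CPM per kb, followed by Car7, Car12 and Car9, which overlapped as neighbours. Car8, behind Car5b in MPC, was at 0 to 0.023 CPM per kb, within the ranges of Car3 and Car11. Levels per kb depend on the length chosen: with the mean transcript length Car2 came to 195 CPM per kb in MPC, and Car12 exchanged places with Car7 in MPC-PTX at 1.61 against 1.503. With that length Car8 in MPC, at 1.89 ± 0.84 CPM per kb, was no longer clear of Car9 at 1.27 ± 0.17.

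The summed level of the 10 genes was 121 ± 4.02 CPM per kb in MPC and 113 ± 2.44 in MPC-PTX. Within that sum, Car2 made up 71.98 ± 2.20% in MPC and 64.6 ± 0.63% in MPC-PTX, and Car13 made up 18.8 ± 1.26% and 27.1 ± 1.13%. Car5b kept 6.72% and 6.77%. Car8 made up 1.58 ± 0.73% of the sum in MPC and 0.0070% in MPC-PTX, and Car12 0.118% and 0.424%. Per kb, Car2 was 3.84 ± 0.31 times Car13 in MPC and 2.38 ± 0.12 times in MPC-PTX, with no overlap between the lines. These shares and ratios depend on the length chosen: with the mean transcript length Car2 made up 81.8% and 76.5%, Car13 9.57% and 14.4% and Car8 0.803% and 0.0037%, and Car2 was 8.58 and 5.32 times Car13, in the same directions. Car8 and Car12, the members with the largest fold differences, were thus minor parts of the family's RNA.

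**Figure D2:**
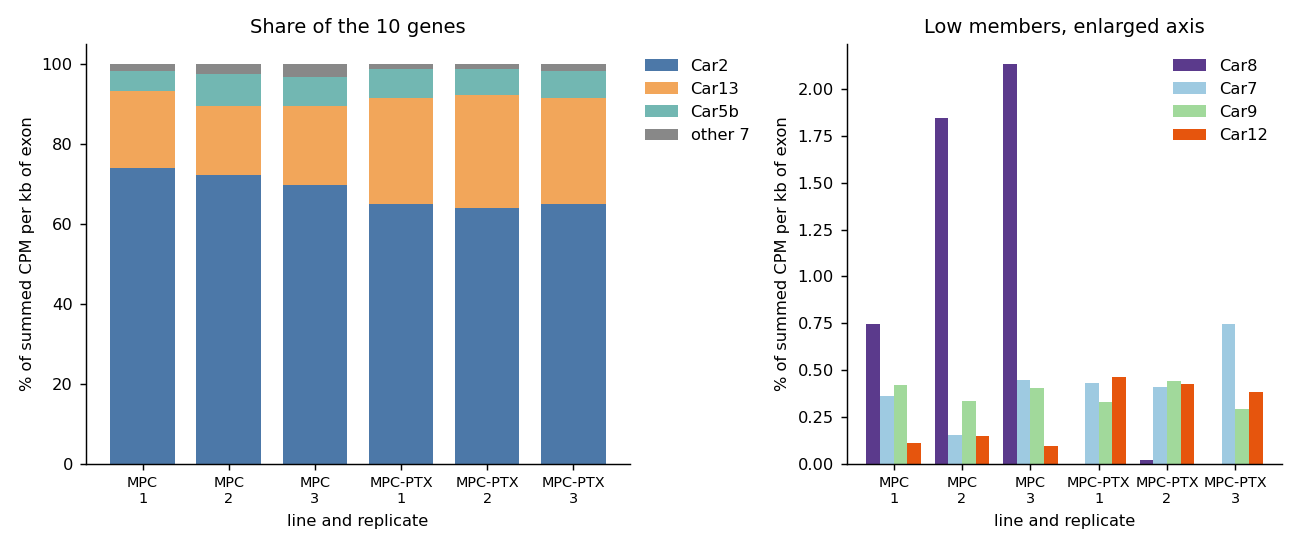
Left, share of each gene in the summed level of the 10 carbonic anhydrases (CPM per kb of exon, %) in each library; right, the same share for Car8, Car7, Car9 and Car12 on an enlarged axis. Car2 was at most 65.03% in the MPC-PTX libraries and at least 69.7% in the MPC libraries, and Car8 was visible in MPC and close to 0 in MPC-PTX.

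The genes around Car8 were lower in MPC-PTX too. Within 1 Mb of its start only 2 other genes were tested, and both were lower. Rab2a, a small GTPase of the early secretory pathway, lies 297 kb away and had 2400, 2611 and 3135 counts in MPC against 1530, 1473 and 1171 in MPC-PTX (-1.04 ± 0.08, edgeR adjusted p = 0.00016). Chd7, a chromatin remodeller at 451 kb, had 170, 233 and 383 counts against 174, 136 and 97 (-1.03 ± 0.27, edgeR adjusted p = 0.027). The Chd7 call was lost without MPC replicate 2 or any single MPC-PTX library, with adjusted p up to 0.101, and the Rab2a call was kept with each library left out. On the other side the nearest tested gene was Tox, a nuclear factor of the immune system, at 1248 kb. It had 18, 14 and 19 counts in MPC and 0 in each MPC-PTX library, at least 17.5-fold lower if 3 counts are allowed over the line. Tox passed the filter through MPC alone, so no p-value is given for it.

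The pattern reached well beyond these neighbours. Of the 30 other tested genes with a start within 5 Mb of the Car8 start, 19 were lower (63.3%, beside 15.6% of all tested genes) and 1 was higher. Of the 30, 27 had a negative log2 fold change, and the median was -0.72. Leaving out Tox and Cdh17, the 25 genes below 0 lay between -0.42 and -1.34, and 17 of them were called lower while 8 did not pass. Car8 and Tox, at or close to 0 counts in MPC-PTX, stood far below that range. Cdh17, an intestinal cadherin 3519 kb away that was singled out after its value was seen, was lower by 2.44 ± 0.30 on the log2 scale (edgeR adjusted p = 0.0012). With each library left out in turn, 13 to 23 of the genes in this span were lower and the median was -0.62 to -0.81. With GC and length offsets 25 were lower. Where 10 counts were required in every library, which left Tox out, 19 of 28 were lower.

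The stretch ended within the same chromosome. Leaving Car8 out, 10 of 15 tested genes in the first 10 Mb of chromosome 4 were lower, 17 of 25 in the next 10 Mb and 7 of 16 in the 10 Mb after that. That last part was mixed, with 9 genes below 0, 7 above and 3 called higher. From 30 Mb on, 50 of 682 were lower and 166 higher, with a median log2 fold change of 0.22 against -0.67 for the first 30 Mb. Over all tested genes 15.6% were lower and 14.1% higher. The cut at 30 Mb follows these same values, so the contrast across it is a description. Car9, on the same chromosome lay outside the stretch: within 5 Mb of it 5 of 84 tested genes were lower and 18 higher, with a median of 0.11. The nearest gene to Car9 on one side, Tpm2, a muscle-type tropomyosin, was lower (-1.77 ± 0.17, edgeR adjusted p = 0.00041), and Arhgef39 on the other did not pass (-0.28, adjusted p = 0.126).

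**Figure D3:**
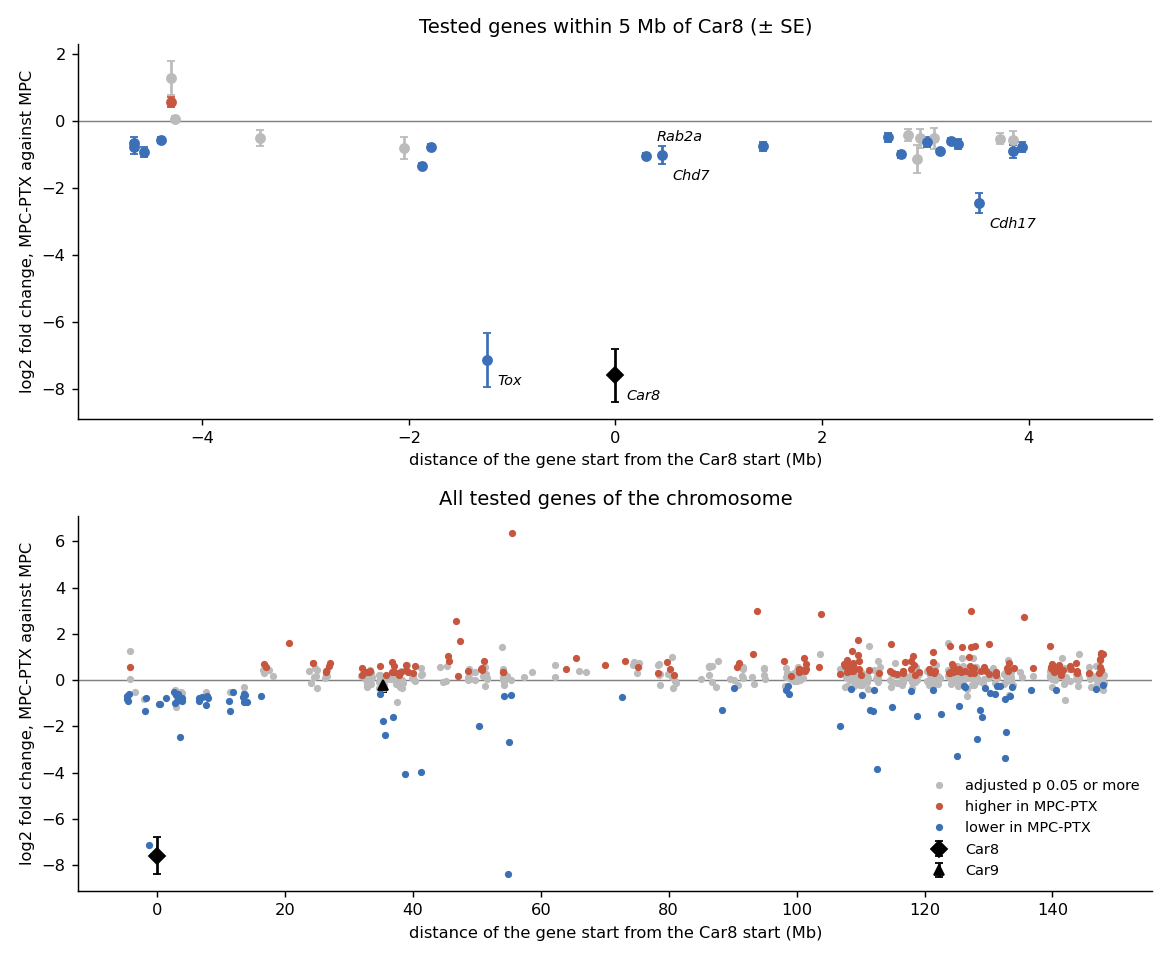
Log2 fold change of tested genes on the chromosome of Car8, by the distance of their start from the Car8 start in Mb, coloured by edgeR adjusted p below 0.05. Top, within 5 Mb, with SE, where 19 of 30 other genes were lower; bottom, the whole chromosome, with Car9 marked, where 523 of the 682 genes from 30 Mb of the chromosome on were above 0.

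Around the other members, the shares of genes within 5 Mb that were lower ran from 2.82% around Car7 to 21.1% around Car12, and the medians from -0.06 to 0.19, against the 63.3% and -0.72 around Car8. Car13, Car1, Car3 and Car2 form 1 cluster on chromosome 3, and of the 4 tested genes within 1 Mb of them outside the list, Car1 among them, 0 were called by edgeR (0 at an unadjusted p under 0.05 and 0 by DESeq2), with a median of -0.20. Next to Car12, Usp3 was lower (-0.35 ± 0.07, adjusted p = 0.0084, but 0.054 or 0.056 without MPC-PTX replicate 2 or 3) and Aph1b did not pass (-0.09, adjusted p = 0.602), while Car12 itself was higher. Next to Car7, Pdp2 was higher (0.66 ± 0.10, edgeR adjusted p = 0.0036) and Nae1 did not pass (0.32, adjusted p = 0.139). Next to Car11, Sec1 had 1.40 ± 0.35 (adjusted p = 0.021, up to 0.082 without 1 library) and Dbp 0.32 (adjusted p = 0.193). Neither neighbour of Car5b (Zrsr2, -0.12, adjusted p = 0.354, and Siah1b, 0.04, adjusted p = 0.829) or of Car4 (Znhit3, 0.08, adjusted p = 0.744, and Usp32, 0.43, adjusted p = 0.346) passed. Rbis beside Car13 had -0.14 (adjusted p = 0.469) and Ythdf3 beyond Car2 had 0.09 (adjusted p = 0.798).

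Car8 was not alone in falling to near 0 counts. With at least 100 counts over the 3 MPC libraries and at most 3 over the 3 MPC-PTX libraries, 19 genes had this pattern, Car8 among them, and 3 had the opposite one. The 8 with the most MPC counts were Rec8, Gramd1b, Car8, Slc4a9, Mrgprb2, Samd5, Mamld1 and Vsig1. Rec8, a meiotic cohesin, had 330, 407 and 387 counts in MPC and 1, 0 and 0 in MPC-PTX. Slc4a9, a member of the bicarbonate transporter family, had 74, 129 and 140 counts in MPC and 3, 0 and 0 in MPC-PTX. Vsig1, an adhesion protein of gastric epithelium, had 56, 60 and 88 against 1, 0 and 0, and Mamld1 had 47, 82 and 100 against 0 in each, at least 78.6-fold lower with 3 counts allowed over the line. These genes were selected on the counts they are shown with, so their number is a description. The rule does not rank the depth of the loss, and it leaves out genes with fewer MPC counts, such as Tox.

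**Figure D4:**
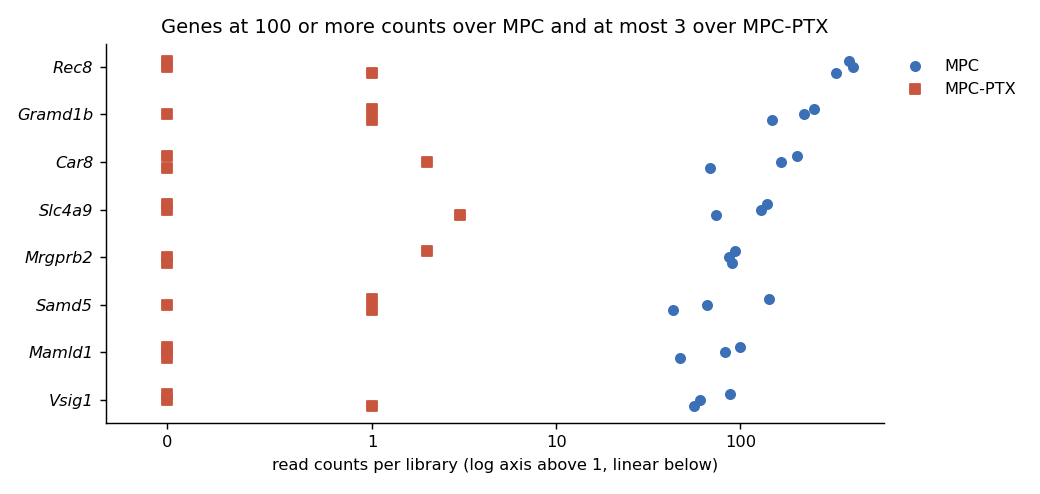
Read counts per library (log axis above 1, linear below) of the 8 genes with the most MPC counts among those with at least 100 counts over MPC and at most 3 over MPC-PTX. Blue circles are MPC libraries and red squares MPC-PTX libraries; Car8 had 68 to 203 counts in MPC and 0 to 2 in MPC-PTX.

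Carbonic anhydrases work beside bicarbonate transporters, proton exporters, proton pumps and bicarbonate-using enzymes, and 100 genes were listed from these groups, the hypoxia genes and the 3 IP3 receptors. Of these, 81 were tested, 16 were higher and 16 lower in MPC-PTX (39.5% called, beside the 29.7% of all genes), with a median log2 fold change of 0.05 against 0.04. The split was 6 higher and 12 lower without MPC replicate 2, 6 and 11, 8 and 9, and 6 and 10 without MPC-PTX replicate 1, 2 and 3, and 18 and 26 without MPC replicate 3.

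Among the listed genes of the bicarbonate transporter families, 14 of 20 were tested, 4 were higher and 3 lower. They were listed by family, and whether each of them, Slc4a11 included, carries bicarbonate was not tested. Slc4a8, a sodium-driven chloride/bicarbonate exchanger, had 24, 34 and 22 counts in MPC and 138, 112 and 73 in MPC-PTX (1.91 ± 0.23, edgeR adjusted p = 0.0011). Slc26a4 (pendrin), a chloride/bicarbonate exchanger, was higher from a low level (5, 10 and 5 against 37, 26 and 18 counts, 1.90 ± 0.37, adjusted p = 0.0082). The lines did not overlap for either gene. Of the 3 lower genes, Slc4a9 passed the filter through MPC alone and had been seen among the strongest falls, so no p-value is given for it. Slc4a11 was at 54.9 ± 4.04 CPM in MPC and 25.0 ± 2.83 in MPC-PTX (-1.13 ± 0.11, edgeR adjusted p = 0.00038). Slc26a1, a sulfate and anion transporter, had -1.56 ± 0.37 (adjusted p = 0.018, but up to 0.078 without any single MPC-PTX library). Slc4a4, a sodium bicarbonate cotransporter, had the highest mean CPM of the list, not scaled by length. It was at 235 ± 84.7 CPM in MPC and 250 ± 6.02 in MPC-PTX (0.09, edgeR adjusted p = 0.807).

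Among proton and lactate exporters, 10 of 14 were tested, 0 were higher by edgeR (0 at an unadjusted p under 0.05 and 0 by DESeq2) and 3 lower. Slc9a4, a sodium/proton exchanger known from acid-secreting gastric cells, had 219, 363 and 395 counts in MPC and 86, 86 and 67 in MPC-PTX (-2.10 ± 0.21, edgeR adjusted p = 0.00047). Bsg, the chaperone of the lactate exporters, was lower by 0.59 ± 0.08 on the log2 scale (adjusted p = 0.0022), and Slc9a2 by 0.77 ± 0.13 (adjusted p = 0.0051). Slc16a1, the lactate exporter of these cells, was at 397 and 363 CPM and did not pass (-0.13, adjusted p = 0.123, but 0.012 without MPC replicate 3), and Slc16a3, the hypoxia-induced one, had 1 to 9 counts per library.

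Of the proton pump genes, 19 of 25 were tested, 4 were higher and 3 lower. The gastric acid pump was absent, with Atp4a at 0.120 and 0.124 CPM and Atp4b at 0.016 and 0.015 CPM. The lower genes included the V-ATPase subunits with a restricted tissue range, Atp6v1c2 (35.1 ± 2.62 against 14.5 ± 1.22 CPM, -1.27 ± 0.10, edgeR adjusted p = 0.00019) and Atp6v0a4 (-1.15 ± 0.21, adjusted p = 0.0059), with Atp6v1e1 lower by 0.25. The higher ones, Atp6v0a1, Atp6v0d1, Atp6v1b2 and Atp6ap2, lay between 0.32 and 0.42 on the log2 scale. Among enzymes that use bicarbonate, 8 of 10 were tested, 2 were higher (Acaca, 0.45 ± 0.06, adjusted p = 0.0025, and Acacb, 0.54 ± 0.14, adjusted p = 0.024) and 2 lower (Pccb, -0.37 ± 0.09, adjusted p = 0.017, and Mccc2, -0.35 ± 0.07, adjusted p = 0.0098). Acaca and Acacb make malonyl-CoA, and Pccb and Mccc2 are subunits of mitochondrial carboxylases. The Acacb and Pccb calls were lost without MPC replicate 2 or any single MPC-PTX library, with adjusted p up to 0.096 and 0.086.

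The IP3 receptors, the calcium channel family in which the Car8 protein has a known binding partner, were detected in both lines. Binding of Car8 to each of them was not tested. Itpr3, the most abundant, was at 262.5 ± 20.3 CPM in MPC and 220.3 ± 3.47 in MPC-PTX (-0.25 ± 0.07, edgeR adjusted p = 0.032, but 0.298 with GC and length offsets). Itpr1 was at 20.04 ± 2.00 and 26.1 ± 0.78 CPM (0.38 ± 0.10, adjusted p = 0.025), and Itpr2 at 8.34 ± 1.58 and 6.44 ± 0.16 CPM (-0.38 ± 0.16, adjusted p = 0.113, but 0.029 without MPC replicate 1 and 0.038 with GC and length offsets). The Itpr1 and Itpr3 calls were both lost without MPC replicate 2 or any single MPC-PTX library, with adjusted p up to 0.109 and 0.135.

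**Figure D5:**
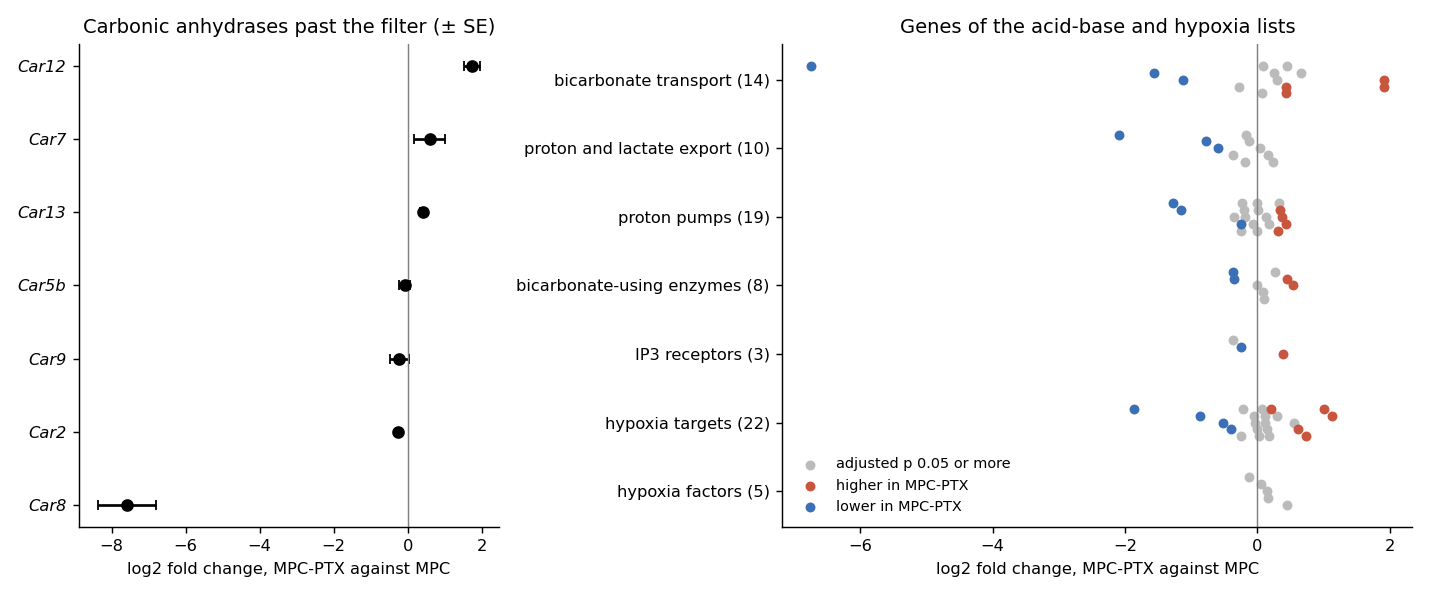
Log2 fold changes of MPC-PTX against MPC. Left, the 7 carbonic anhydrases that passed the filter, with SE; right, tested genes of the acid-base and hypoxia lists (number tested in brackets), red where higher and blue where lower at an edgeR adjusted p below 0.05. Points fall on both sides of 0 in every list, with Slc4a9 farthest to the left.

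Hypoxia targets, the programme that Car9 and Car12 are known to belong to, did not move one way. All 22 listed were tested, 5 were higher and 4 lower, with a median of 0.09. Vegfa, the angiogenic factor, had 1720, 1079 and 1337 counts in MPC and 3324, 3238 and 2289 in MPC-PTX (1.01 ± 0.18, edgeR adjusted p = 0.0065), and Ak4, a mitochondrial adenylate kinase, was at 28.9 ± 4.00 and 63.3 ± 2.01 CPM (1.13 ± 0.11, adjusted p = 0.00041). Egln3, the prolyl hydroxylase induced by hypoxia, was at 65.3 ± 11.02 and 18.0 ± 0.60 CPM (-1.86 ± 0.13, adjusted p = 0.00012), and Ddit4 was lower by 0.86 ± 0.10 (adjusted p = 0.00091). The glucose transporter Slc2a1, at 59.3 and 59.2 CPM (adjusted p = 0.982), and lactate dehydrogenase Ldha, at 1647 and 1728 CPM (adjusted p = 0.635), did not pass, while Pfkfb4, a regulator of glycolysis, was higher (0.61 ± 0.18, edgeR adjusted p = 0.042). Of the factors themselves, 5 of 6 were tested and 0 were called by edgeR (1 at an unadjusted p under 0.05 and 0 by DESeq2). Hif1a was at 119 ± 32.8 and 162 ± 5.65 CPM (0.44 ± 0.18, adjusted p = 0.112), and passed without MPC replicate 3 (0.64, adjusted p = 1.4e-05) and with GC and length offsets (0.25, adjusted p = 0.0050). Epas1 was at 75.8 ± 16.1 and 84.0 ± 3.74 CPM (0.15 ± 0.15, adjusted p = 0.495). Car12, Vegfa and Ak4 were thus above their MPC level and Egln3 below it, while the lines overlapped for Car9.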

How the data were processed

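RNA of 6 libraries was measured by poly-A selected RNA-seq. The authors filtered reads with fastp 0.22.0 (submitters' processing notes), mapped them with HISAT2 and deposited raw read counts per gene, not normalized and not pooled. The genome build, annotation, counter and use of strand are not given in the sources used here. The 6 sample tables held the same values as the series table.

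The script was tested on simulated data. Counts were scaled by TMM (CPM use that library size), filtered with filterByExpr (minimum count 10) and fitted for all 11795 remaining genes with edgeR 4.0.16 (glmQLFit, glmQLFTest, R 4.3.3) on line alone. P-values were adjusted by Benjamini-Hochberg, and genes below 0.05 were called. The methods' own rule (absolute log2 fold change above 1, unadjusted p below 0.05), applied here to the edgeR fit and not to DESeq, gave 445 genes higher and 512 lower. Car12 and Car8 were among them, from which nothing is read, since the family was chosen with this contrast in view. A count of 0 was taken to allow 3 counts. Positions and lengths came from GENCODE M21 (GRCm38), which matched 21851 of 21959 genes; exon length is the union of exons.

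The members, lists, markers and naming rule were chosen with earlier results of these data known, and Car8, Slc4a9, Rec8 and Gramd1b had been seen among the strongest falls. The named genes were all members and other family genes, list genes past an adjusted p of 0.05 and an absolute log2 fold change of 1, the IP3 receptors, hypoxia factors and lactate exporters, the nearest tested gene on each side of each member, and the 8 genes with the pattern of Car8 and the most MPC counts. Other genes of the lists and the 5 Mb span were named or chosen after their values were seen. Alternatives were other scalings (DESeq2 1.42.0 size factors, library size), DESeq2, other filters, a replicate block, GC and length offsets and leaving out each library. Ptprg and protein sequences were not used here.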

Additional observations from a re-analysis of the deposited data

How the results depend on the processing

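In 101 of 111 refits the members' log2 fold changes moved by less than 1 SD between libraries, with 0 changes of direction in a called member; of the 10 larger moves 4 were in Car8 and 2 each in Car12 and Car13, and Car8 was not tested where 10 counts were required in every library. Leaving out 1 library at a time gave 803 to 3020 genes higher and 1077 to 3227 lower, and 6 to 18 list genes higher and 9 to 26 lower. The highest counts came without MPC replicate 3 and the lowest without 1 of the MPC-PTX libraries or, for genes higher in the lists, also without MPC replicate 2. With GC and length offsets and the replicate block together, 2532 genes were higher; with the replicate block alone, 1787 were higher and 1717 lower, close to 1668 and 1841 without it. Deviations of same-numbered libraries correlated at 0.151, -0.023 and 0.173. The MPC-PTX libraries varied little, so these values cannot show whether replicate numbers paired the samples. Without MPC replicate 1, tested genes that were not called changed direction: Car1 to 0.65 (range -1.96 to 0.65), Car14 to -0.0099 (-0.0099 to 0.51) and Epas1 to -0.013 (-0.0132 to 0.22). Car5b, with no call, went from -0.08 to 0.04 without MPC replicate 2. Hif1a passed with the replicate block (0.47, edgeR adjusted p = 0.029) and with the block and offsets (0.25, adjusted p = 0.012). The cause was not tested. Of 291 refits of list genes, 21 lost a call and 8 gained one. Car3, Car4 and Car11, with at most 5 counts in any library, are limited by depth.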
